A study of Mus musculus with 43 samples.

Results

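Genes that restrain T cell receptor signalling or mark anergic CD4 T cells were followed in T cells that met antigen for different lengths of time and at different doses. The set held 10 genes of the 22180 genes measured, chosen by name with earlier results of these data known. They were the ubiquitin ligases Cblb, Itch and Rnf128, the diacylglycerol kinases Dgka and Dgkz, the surface molecules Nt5e and Izumo1r, the phosphatase Ptpn22, the adaptor Sh2d2a, and Ndrg1. Each was read from 1 probe set, the one with the highest mean over 43 arrays where a gene had more, and only Dgkz and Ndrg1 of the set had 2. Nt5e, which encodes CD73, varied most: its group means ran from 4.12 in naive cells to 9.36 under the highest antigen load, on the log2 signal scale used throughout. Izumo1r and Dgkz were higher with intermediate antigen than in cells without continued antigen on both days, for Dgkz on day 30 on only 1 of its 2 probe sets. On day 30 their means with intermediate antigen were close to those of naive cells (10.18 and 10.12 for Izumo1r, 8.59 and 8.55 for Dgkz). Dgka fell with intermediate and high antigen on day 10, and Rnf128 rose in the high group. Itch passed limma's test in 0 of 19 comparisons, with 1 at an unadjusted p under 0.05.

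The cells were CD4 T cells of donors that carry the AND receptor, specific for a moth cytochrome c peptide, lack Rag2 and bear CD45.1. All donor cells shared this genotype, and all were recovered by sorting them 2 times as CD4+CD90.2+CD45.1+ cells. Recipients named iMCC make the peptide in dendritic cells under doxycycline; they had anti-CD40 antibody and 100 µg/ml doxycycline from the day before transfer to day 3. From day 3 the drinking water held 0 µg/ml doxycycline for the none group, 10 µg/ml for the low group and 100 µg/ml for the intermediate (int) group, and cells were taken on day 10 or day 30. The off group had 100 µg/ml to day 10 and 0 µg/ml from then to day 30. The high group, sorted on day 10, came from cMCC mice, a different strain without doxycycline in which all MHC-II+ cells make the peptide all the time, so that dose, strain, presenting cell and drug cannot be told apart there. It has no day 30 counterpart, because AND cells die in these mice before then, per the labels. Naive cells had been transferred into non-transgenic mice and were sorted on day 3 without doxycycline, so that priming cannot be told apart from time, recipient and drug. There were 5 arrays in every group except the day 10 int and high groups, with 4 each. Day 30 cells came from a second series of sorts, so that day and series of sorts cannot be told apart. Whether arrays of a group stand for separate mice is not stated, and p-values therefore measure only the spread between these arrays, part of which may be technical. Each value is RNA of a sorted population, in which fewer cells with a transcript and less RNA per cell cannot be told apart.

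Anergy is a state in which a T cell that met antigen responds poorly when it meets it again. Cbl-b, Itch and GRAIL, the product of Rnf128, are E3 ligases that attach ubiquitin to receptor signalling proteins, and DGKα and DGKζ remove the second messenger diacylglycerol by turning it into phosphatidic acid, which dampens the Ras pathway. CD73 makes extracellular adenosine from AMP, and together with folate receptor 4, the product of Izumo1r, it is used as a surface mark of anergic CD4 T cells, while both are also found on regulatory T cells. PTPN22 works with the kinase Csk to switch off Lck, TSAd (Sh2d2a) is an adaptor that binds Lck, and NDRG1 has been described as a factor of T cell anergy.

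Of the 10 genes, 7 have a start site in the RefSeq promoter table of build GRCm38.p6, and the 250 bases before it are shown for Nt5e, Izumo1r and Dgkz, the members called higher with intermediate antigen on both days. Letters of the NFAT core GGAAA, the AP-1 site TGANTCA, the EGR site GCGNGGGCG and the RUNX core TGTGGT, searched on both strands, are in capitals. These motifs were found in 55.6%, 6.75%, 4.7% and 14% of 32851 windows of the same length. The Nt5e window is chr9:88327359-88327608 on the plus strand, the Izumo1r window chr9:14903768-14904017 on the minus strand, and the Dgkz windows, at alternative starts, are chr2:91950349-91950598 and chr2:91963564-91963813 on the minus strand.
Nt5e: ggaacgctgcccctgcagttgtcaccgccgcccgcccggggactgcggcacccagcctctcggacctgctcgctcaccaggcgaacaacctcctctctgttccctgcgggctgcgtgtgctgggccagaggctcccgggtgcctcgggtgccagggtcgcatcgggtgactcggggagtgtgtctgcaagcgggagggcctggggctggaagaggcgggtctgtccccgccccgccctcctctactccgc
Izumo1r: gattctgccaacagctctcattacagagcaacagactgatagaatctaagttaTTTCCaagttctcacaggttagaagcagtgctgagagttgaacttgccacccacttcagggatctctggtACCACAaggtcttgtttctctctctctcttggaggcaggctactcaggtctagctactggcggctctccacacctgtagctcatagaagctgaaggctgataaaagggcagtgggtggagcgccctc
Dgkz, start 1: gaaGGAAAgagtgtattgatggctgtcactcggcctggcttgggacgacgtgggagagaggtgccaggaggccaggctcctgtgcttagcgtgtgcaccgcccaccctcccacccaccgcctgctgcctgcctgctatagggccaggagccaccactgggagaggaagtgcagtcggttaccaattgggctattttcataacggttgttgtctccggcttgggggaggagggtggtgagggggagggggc
Dgkz, start 2: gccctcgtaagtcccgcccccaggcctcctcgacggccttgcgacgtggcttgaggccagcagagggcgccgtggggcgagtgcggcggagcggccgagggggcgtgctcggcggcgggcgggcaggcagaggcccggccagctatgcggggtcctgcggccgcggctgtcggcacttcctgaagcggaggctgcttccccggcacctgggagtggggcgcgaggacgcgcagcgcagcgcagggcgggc
The Izumo1r window holds 1 NFAT core, beginning at base -197 from the start site, and 1 RUNX core at base -127. The first Dgkz window holds 1 NFAT core at base -247, and none of these letters occurs in the second or in the Nt5e window, which has 72% G and C. The motifs do not overlap one another, and a match is only a match of letters.

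The deposited log2 values ran from 1.46 to 13.87, array medians lay between 3.28 and 3.44, and arrays of a group correlated at 0.909 to 0.9759, with 0 identical pairs. These values were taken over all probe sets of the array. The mean of 6 T cell markers lay at 10.44 to 10.96 on every array, and Rag2 lay at 2.41 to 3.46. Naive arrays 3 and 4 stood apart: the mean of 6 B cell markers was 5.59 and 4.56 there against 3.41 to 3.82 on the other naive arrays and 3.21 to 3.92 elsewhere. The mean of 8 myeloid markers was 5.5 and 5.16 on these arrays, 3.3 to 4.18 on the other naive arrays, and 2.88 to 4.4 elsewhere. Called differences from naive cells are therefore also given without naive arrays 3 and 4, since the part of these transcripts in them was not tested. None arrays 3, 4 and 5 of day 10 also had higher myeloid means, 4.15, 4.27 and 3.99. None arrays 1 and 2 had 3.34 and 3.02, and int arrays of day 10 had 3.15 to 3.62. The none group is the reference of the day 10 antigen groups, and the part of myeloid transcripts in it was not tested.

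**Figure D1:**
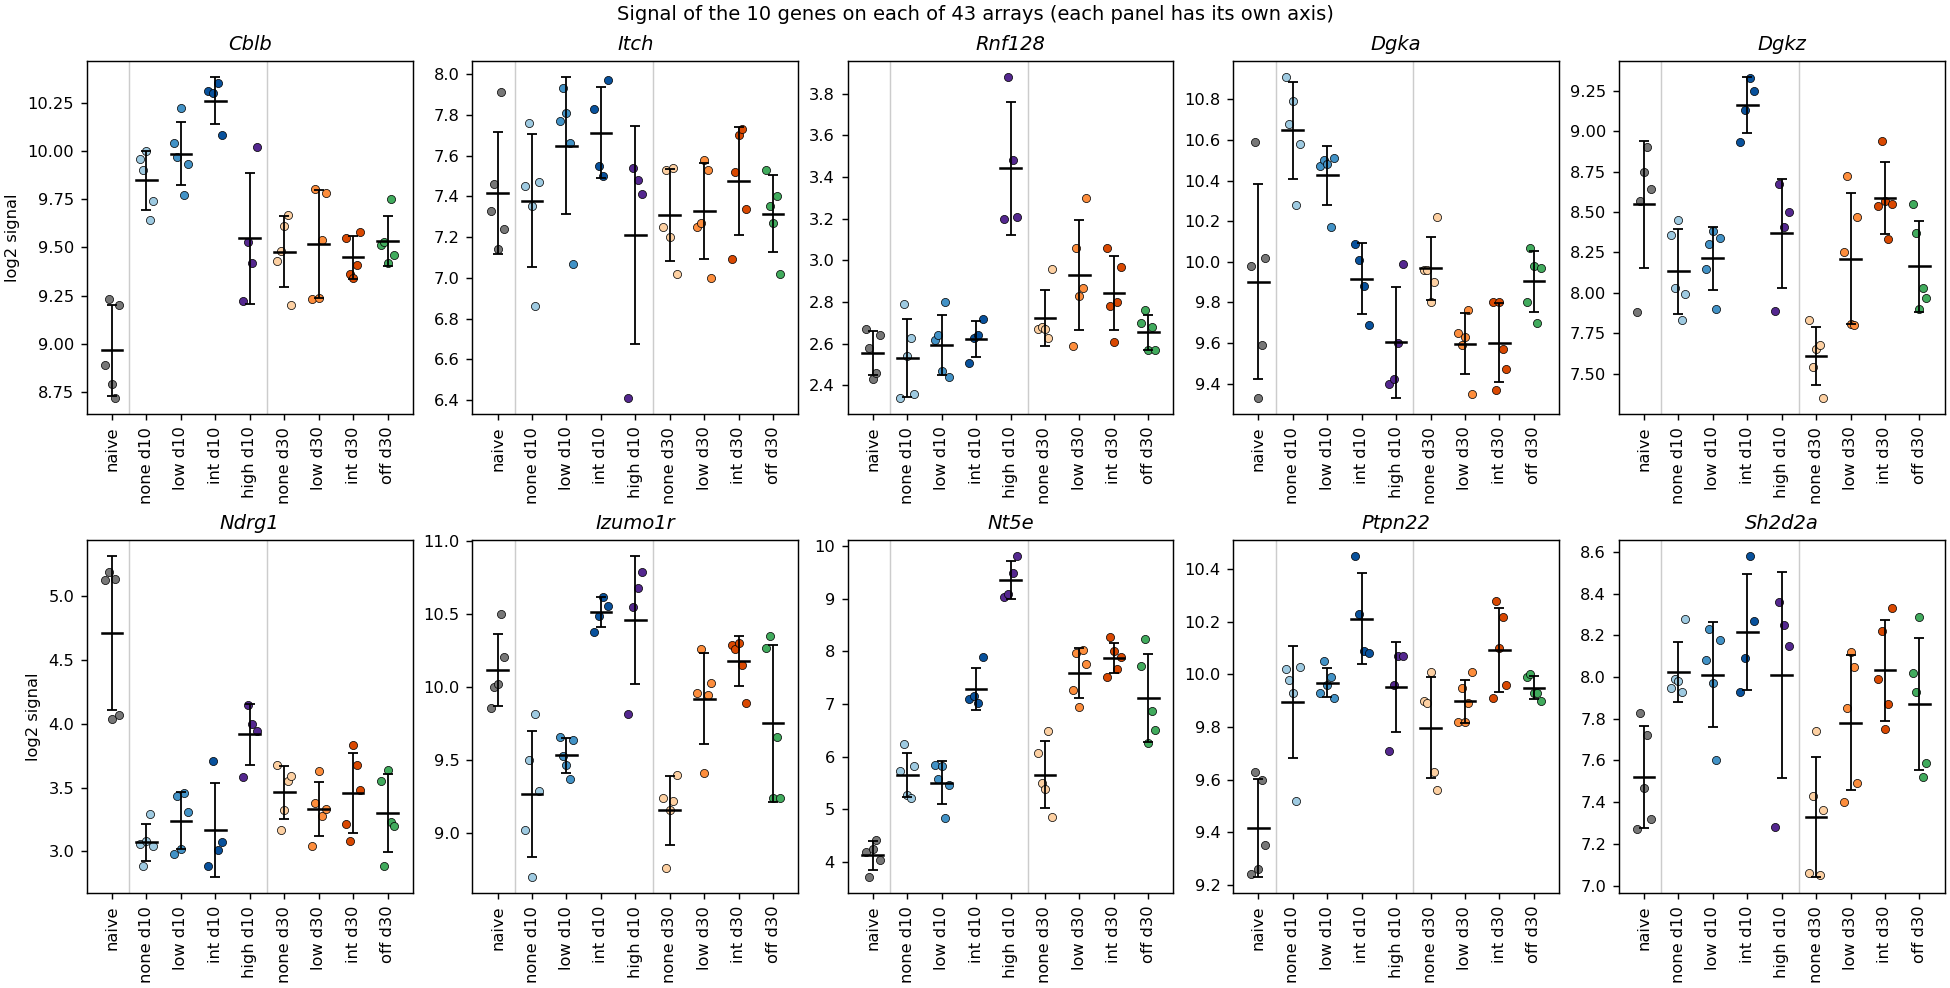
Log2 signal of the 10 genes on each of 43 arrays, 1 panel per gene with its own axis, by group along the horizontal axis. Points are arrays, lines are group means and bars are 1 SD; the Nt5e panel climbs from 4.12 in naive cells to 9.36 in the day 10 high group, while the Itch panel stays within 7.21 to 7.71.

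A gene was called where limma's adjusted p over all 22180 genes was under 0.05, and the share of all genes called is given beside the counts of the 10. That share covers genes of every brightness, whereas all members but Rnf128 and Ndrg1 lay at the 87.4th percentile of mean signal or above. The counts and shares are therefore not a comparison of genes of like signal. Of the 10 genes, 6 were called between none cells of day 10 and naive cells (3.3% of all genes), 6 between none cells of day 30 and naive cells (4.33%), 5 between int cells of day 10 and naive cells (3.15%) and 5 between high and naive cells (4.82%). These comparisons share the naive arrays. Against the none group of day 10, which they share, limma called 0 of the 10 in the low group (0.00451% of all genes; at an unadjusted p under 0.05, also 0), 4 in the int group (1.24%) and 5 in the high group (5.25%). Int differed from low in 3 of the 10 (0.541%) and high from int in 5 (2.99%).

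On day 30, again against shared none arrays, 2 of the 10 were called in the low group (0.654% of all genes), 4 in the int group (2.21%) and 1 in the off group (0.266%). Int and low cells of day 30 differed in 0 of the 10 by limma (0.546% of all genes; 1 of the 10 at an unadjusted p under 0.05), and off and int cells in 0 (0.464%; 4 at an unadjusted p under 0.05). Between days, 2 of the 10 were called in none cells (3.43%), 3 in low cells (2.87%) and 1 in int cells (0.712%). The effect of int antigen differed between the days in 0 of the 10 by limma's interaction test (0.0902% of all genes; 1 of the 10 at an unadjusted p under 0.05), and that of low antigen in 1 (0.0316%). The median log2 fold change of the 10 was 0.33 in int against none on day 10 and 0.23 on day 30, with medians over all genes of -0.01 in both. In all, 53 of 190 gene and comparison pairs were called, and 34 of these kept the call under every alternative run and on leaving out each array in turn.

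**Figure D2:**
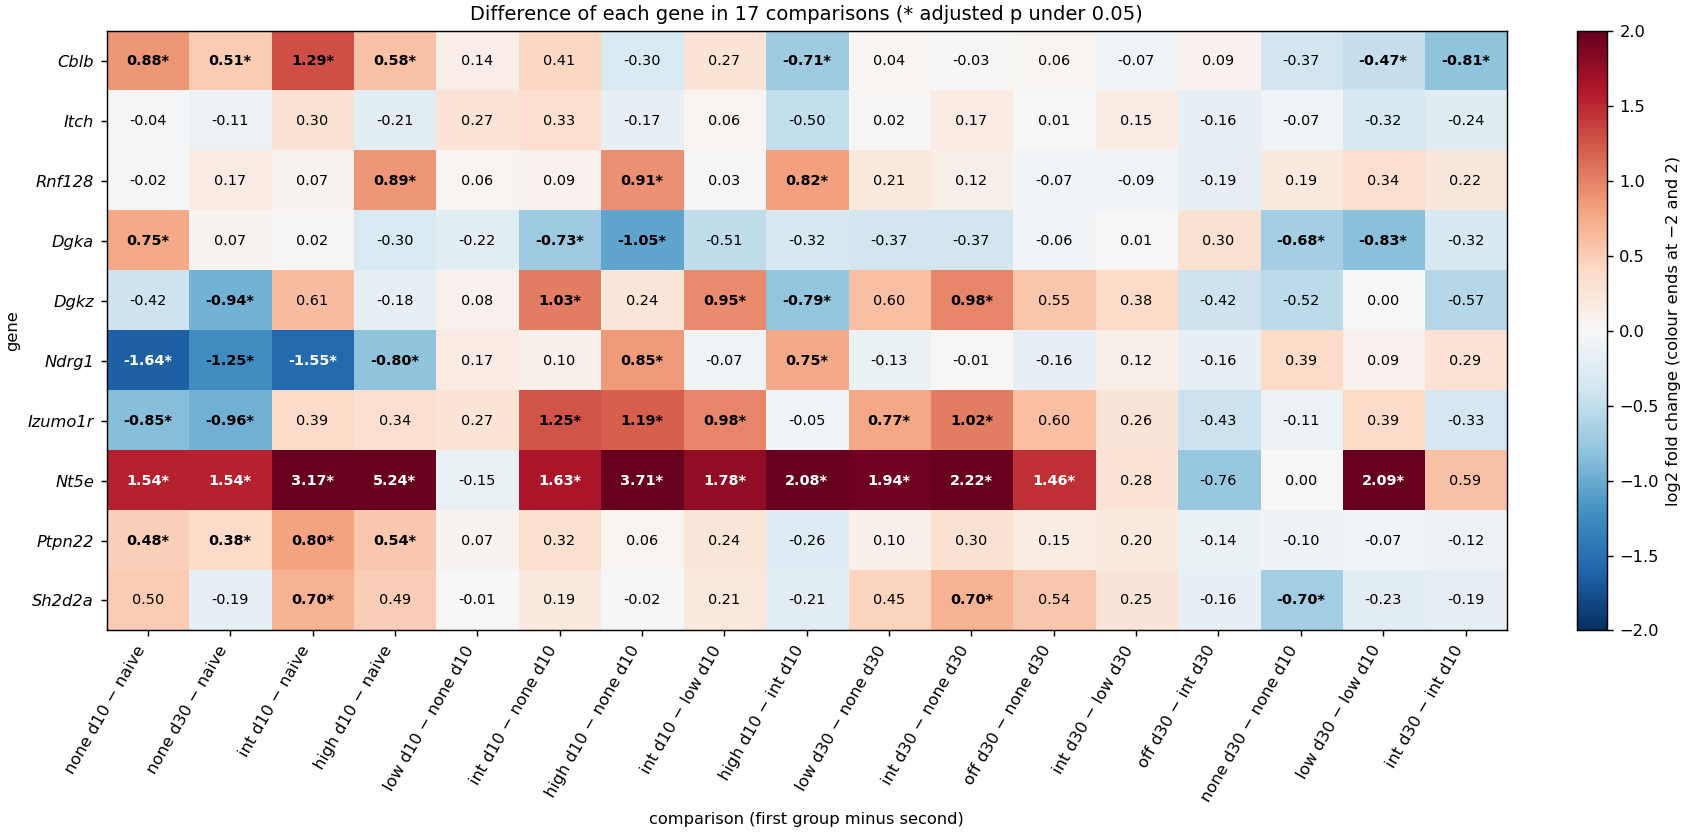
Log2 fold change of each of the 10 genes (rows) in 17 differences between groups (columns, first group minus second), with the value written in each cell and a star where the adjusted p was under 0.05. Colour ends at -2 and 2; the row of Nt5e holds the largest value, 5.24 for high minus naive, and the row of Itch has no star.

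Cblb, the ligase whose loss lets T cells respond without costimulation, rose after priming and stood highest with intermediate antigen on day 10. Naive arrays read 8.72, 8.79, 8.89, 9.2 and 9.23, and the none arrays of day 10 read 9.64, 9.74, 9.9, 9.96 and 10. The int arrays of day 10 read 10.08, 10.3, 10.31 and 10.35. These 3 groups do not overlap. None cells of day 10 exceeded naive cells by 0.88 ± 0.13 (SE; adjusted p = 4.22e-06, and 0.74 without naive arrays 3 and 4), and int cells exceeded them by 1.29 ± 0.13 (adjusted p = 2.32e-09, and 1.15 without those arrays). The step from none to int on day 10 did not pass the test, at 0.41 with a 95% interval of 0.14 to 0.68 (adjusted p = 0.158).

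The high arrays read 9.22, 9.42, 9.53 and 10.02 for Cblb, all below the int arrays of day 10. Cblb was accordingly lower in high than in int cells by -0.71 ± 0.14 (adjusted p = 0.00107), and this call held under every alternative. High cells still exceeded naive cells, by 0.58 ± 0.13 (adjusted p = 0.00359), but not without high array 5 (0.42, adjusted p = 0.0589), without naive arrays 3 and 4 (0.44, adjusted p = 0.0975), or with these groups fitted alone (adjusted p = 0.131). On day 30 the group means of Cblb lay together, from 9.45 in int to 9.53 in off cells. Int cells of day 30 were lower than those of day 10 by -0.81 ± 0.13 (adjusted p = 0.00137), with no overlap between the arrays. Low cells also fell between the days, by -0.47 ± 0.13 (adjusted p = 0.0315); leaving out any of low arrays 1, 2 and 3 of day 10 or low arrays 1, 3 and 4 of day 30 ended this call, with adjusted p values of 0.0567 to 0.118, as did quantile normalization (adjusted p = 0.0573) and fitting these groups alone (adjusted p = 0.0618). Over naive cells, none cells of day 30 stood higher by 0.51 ± 0.13 (adjusted p = 0.0103), a call lost without naive arrays 3 and 4 (0.37, adjusted p = 0.171) and with these groups fitted alone (adjusted p = 0.0721).

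Itch, a ligase of the Nedd4 family, showed no called difference. Its group means spanned 0.5 log2 units, from 7.21 ± 0.54 (SD, n = 4) in high to 7.71 ± 0.22 (n = 4) in int cells of day 10, and all groups overlapped in each of the 17 differences. The contrast of high and int cells came nearest, at -0.5 with a 95% interval of -0.94 to -0.06 (adjusted p = 0.274). For int against none the interval was -0.08 to 0.75 on day 10 and -0.22 to 0.56 on day 30, so that differences under these bounds could not be seen with these numbers of arrays.

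Rnf128, which encodes the membrane-bound ligase GRAIL, was dim, at the 18.8th percentile of genes by mean signal. The high arrays read 3.2, 3.21, 3.48 and 3.88, while the other groups held values from 2.34 to 3.3. No none, low, int or naive array of day 10 or earlier reached the lowest high array. High cells exceeded none cells of day 10 by 0.91 ± 0.13 (adjusted p = 1.21e-06), int cells by 0.82 ± 0.13 (adjusted p = 4.64e-05) and naive cells by 0.89 ± 0.13 (adjusted p = 1.5e-06; 0.81 without naive arrays 3 and 4). These 3 calls held on leaving out each array and under each alternative that kept so dim a gene. In int against none cells the difference was 0.09 (95% interval -0.16 to 0.35) on day 10 and 0.12 (-0.12 to 0.36) on day 30, neither called.

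Among 16 measured genes of related ubiquitin ligases, adaptors and deubiquitinases, 1 rose and 1 fell with int antigen on day 10, 2 rose and 4 fell in high cells, and 3 rose with int antigen on day 30, where 1.24%, 5.25% and 2.21% of all genes were called. These shares and the medians over all genes apply to the counts of every related list in the same 3 comparisons. Ubash3b, which encodes the phosphatase Sts-1 and rose in all 3 comparisons, was higher by 0.89, 1.17 and 1.18 respectively. Its relative Ubash3a fell on day 10, by -0.7 in int and -0.97 in high cells. Cbl, the paralogue of Cblb, was lower in high cells (-1.03 ± 0.26, adjusted p = 0.00901) and higher in int cells of day 30 (1.13 ± 0.24, adjusted p = 0.00382). The list's median was 0.17, -0.23 and 0.02 in the 3 comparisons, against -0.01, 0.01 and -0.01 over all genes.

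Both diacylglycerol kinases moved with antigen, in different directions. Dgka, the kinase that quiescent T cells express strongly, was highest in none cells of day 10, whose arrays read 10.28, 10.58, 10.68, 10.79 and 10.91. The low arrays of day 10 read 10.17, 10.47, 10.48, 10.5 and 10.51, the int arrays 9.69, 9.88, 10.01 and 10.09, and the high arrays 9.4, 9.42, 9.6 and 9.99. Every int and high array lay below every none and low array. Dgka was lower than in none cells by -0.73 ± 0.15 in int (adjusted p = 0.00452) and by -1.05 ± 0.15 in high cells (adjusted p = 4.32e-06), and both calls held under every alternative. Int against low was -0.51 (95% interval -0.82 to -0.2) and not called (adjusted p = 0.204), although the arrays did not overlap; it was called with array weights (adjusted p = 0.0109), with these groups fitted alone (adjusted p = 0.0255) and without 4 arrays that stood apart, naive arrays 3 and 4, none array 4 and high array 2 of day 10 (adjusted p = 0.034).

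By day 30 the level of Dgka in none cells had dropped to arrays of 9.8, 9.9, 9.96, 9.96 and 10.22, which lie below all none arrays of day 10. The difference was -0.68 ± 0.14 (adjusted p = 0.00587), and in low cells it was -0.83 ± 0.14 (adjusted p = 0.000851). Within day 30, Dgka means were 9.6 in low and in int, 9.97 in none and 9.9 in off cells. The low arrays, 9.35 to 9.76, lay below all none arrays, but the difference of -0.37 was not called in low (95% interval -0.66 to -0.08, adjusted p = 0.28) or in int cells (-0.66 to -0.07, adjusted p = 0.227). Naive arrays spread from 9.33 to 10.59. None cells of day 10 exceeded them by 0.75 ± 0.14 (adjusted p = 0.000716), and by 0.45 without naive arrays 3 and 4, which had the lowest naive values (adjusted p = 0.126). High against naive was -0.3 and not called (adjusted p = 0.369), but without those arrays it was -0.59 and called (adjusted p = 0.0108).

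Dgkz rose with intermediate antigen. The none arrays of day 10 read 7.83, 7.99, 8.03, 8.36 and 8.45, the low arrays 7.9, 8.15, 8.3, 8.34 and 8.38, and the int arrays 8.93, 9.13, 9.25 and 9.33. Every int array lay above every none, low and naive array. Against naive cells the difference of 0.61 was not called (adjusted p = 0.068), but without naive arrays 3 and 4 it was 0.8 and called (adjusted p = 0.0335). Int cells exceeded none cells by 1.03 ± 0.19 (adjusted p = 0.00079) and low cells by 0.95 ± 0.19 (adjusted p = 0.00458). High arrays, at 7.89, 8.41, 8.5 and 8.67, did not follow: high against none was 0.24 (95% interval -0.15 to 0.62, adjusted p = 0.623). High cells were lower than int cells by -0.79 ± 0.2 (adjusted p = 0.0153), a call that was lost without high array 2 (-0.63, adjusted p = 0.115), without int array 3 (-0.74, adjusted p = 0.064) and with these groups fitted alone (adjusted p = 0.0531).

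On day 30 Dgkz was lowest in none cells, with arrays of 7.35, 7.54, 7.65, 7.68 and 7.83, and highest in int cells, with 8.33, 8.54, 8.55, 8.57 and 8.94. The difference was 0.98 ± 0.18 (adjusted p = 0.000451), close in size to that of day 10, and the change between days of -0.05 had a 95% interval of -0.58 to 0.47. Low arrays spread from 7.8 to 8.72 and off arrays from 7.9 to 8.55, and neither group was called against none, at 0.6 (adjusted p = 0.113) and 0.55 (adjusted p = 0.187). Against naive cells, none cells of day 30 were lower by -0.94 ± 0.18 (adjusted p = 0.000666). Without naive arrays 3 and 4 this difference was -0.75 (adjusted p = 0.0312). The int mean of day 30, 8.59, was close to the naive mean of 8.55, and these 2 groups were not tested against each other. A second probe set of Dgkz, dimmer, ordered the groups of day 10 alike: 3.47 in none, 3.94 in low, 4.06 in high and 5.67 in int cells. Its int against none difference was larger on day 10, 2.21, but on day 30 it was 0.88 and not called (adjusted p = 0.211). On this probe set none cells of day 10 were lower than naive cells by -1.66 (adjusted p = 0.00157; -0.42 and not called on the brighter one), and int cells fell from day 10 to day 30 by -1.69 (adjusted p = 0.0116; -0.57 and not called on the brighter one).

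The diacylglycerol pathway list, with 18 measured genes, had 1 higher and 2 lower in int cells of day 10, 1 higher and 5 lower in high cells, and 3 higher in int cells of day 30. Rasgrp1 encodes an exchange factor of Ras that binds diacylglycerol, and Rasgrp2 encodes a related exchange factor of Rap. Rasgrp2 fell by -1.12 ± 0.29 in int (adjusted p = 0.0383) and -1.87 ± 0.29 in high cells (adjusted p = 1.45e-05), and Rasgrp1 fell in high cells by -1.21 ± 0.16 (adjusted p = 4.11e-07). Another kinase of the family, Dgkd, fell in int cells of day 10 by -0.95 ± 0.24 (adjusted p = 0.0317). Prkca, a diacylglycerol-activated protein kinase, rose in high cells (1.6) and in int cells of day 30 (1.4), and Rasa1, a Ras GTPase-activating protein, rose in int cells on both days (0.69 and 0.79). Lat, the membrane adaptor that recruits phospholipase C, rose by 0.4 ± 0.1 in int cells of day 30 (adjusted p = 0.0209) and fell by 1.07 in high cells of day 10 (SE 0.11, adjusted p = 1.41e-09). List medians were -0.1, -0.16 and -0.01.

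Nt5e, whose product CD73 yields adenosine, had the largest span of the 10 genes, 5.24 log2 units, and was called in 13 of 19 comparisons. Naive arrays read 3.71, 4.04, 4.18, 4.25 and 4.42, and none arrays of day 10 read 5.22, 5.27, 5.73, 5.83 and 6.23. Int arrays of day 10 read 7.01, 7.09, 7.16 and 7.89, and high arrays read 9.04, 9.1, 9.5 and 9.81. These 4 groups do not overlap. Of the none arrays with the higher myeloid means, arrays 3 and 4 read 5.27 and 5.22 and array 5 read 5.83. Against naive cells Nt5e was higher by 1.54 ± 0.29 in none cells (adjusted p = 0.000609), by 3.17 ± 0.31 in int (adjusted p = 6.7e-10) and by 5.24 ± 0.31 in high cells (adjusted p = 8.46e-17), and by 1.68, 3.31 and 5.39 without naive arrays 3 and 4. Relative to none cells of the same day, Nt5e was 3.1-fold higher in int cells (1.63 ± 0.31, adjusted p = 0.00129) and 13.1-fold higher in high cells (3.71 ± 0.31, adjusted p = 7.49e-12). The step from int to high was 2.08 ± 0.33 (adjusted p = 3.37e-05).

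Low antigen had no detectable effect on Nt5e on day 10 but had one on day 30. The low arrays of day 10 read 4.83, 5.46, 5.58, 5.82 and 5.84, within and below the none arrays, and the difference of -0.15 had a 95% interval of -0.74 to 0.44. The low arrays of day 30 read 6.94, 7.27, 7.76, 7.97 and 8.03, above all none arrays of that day, 4.85, 5.38, 5.5, 6.07 and 6.48. The difference on day 30 was 1.94 ± 0.29 (adjusted p = 0.000101), and low cells of day 30 exceeded those of day 10 by 2.09 ± 0.29 (adjusted p = 2.46e-05), while the none means were 5.66 on both days. The low effect differed between days by 2.09 ± 0.42 (95% interval 1.25 to 2.93, adjusted p = 0.0316). That interaction had a narrow margin: the call was lost on 12 of the 20 single arrays that could be left out, at 1.89 to 2.11 and an adjusted p of 0.0524 to 0.103. Those arrays were low arrays 2, 4 and 5 and none arrays 1, 2 and 5 of day 10, and low arrays 2, 4 and 5 and none arrays 2, 3 and 5 of day 30. Centring each array on its median also ended it (adjusted p = 0.0608).

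Int arrays of day 30 read 7.52, 7.67, 7.9, 8.01 and 8.27 for Nt5e, above all none arrays (2.22 ± 0.29, adjusted p = 2.06e-06). They overlapped the low arrays, from which they differed by 0.28 (95% interval -0.31 to 0.87). In the off group, 20 days after withdrawal, arrays 1 to 5 spread widely, at 7.73, 8.24, 6.26, 6.86 and 6.5, from the none range into the int range. The mean of the 8 myeloid markers on the same arrays was 3.67, 3.4, 4.1, 4.11 and 4.4, against 2.88 to 3.36 on none arrays of day 30, and 2 of the 8, S100a8 and S100a9, were called higher in off than in none cells. The off arrays with the higher Nt5e values thus had the lower myeloid means, and the part of such transcripts in the off values was not tested. Off cells exceeded none cells by 1.46 ± 0.29 (adjusted p = 0.0123), but the call was lost without off array 1 (adjusted p = 0.0638), off array 2 (adjusted p = 0.0921) or none array 5 (adjusted p = 0.0622), with array weights (adjusted p = 0.0517) and with these groups fitted alone (adjusted p = 0.241). Off minus int was -0.76 (95% interval -1.35 to -0.16) and was not called (adjusted p = 0.462). In the order of group means, neighbouring groups overlapped except at 2 places, between naive and low cells of day 10 and between int cells of day 30 and high cells.

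**Figure D3:**
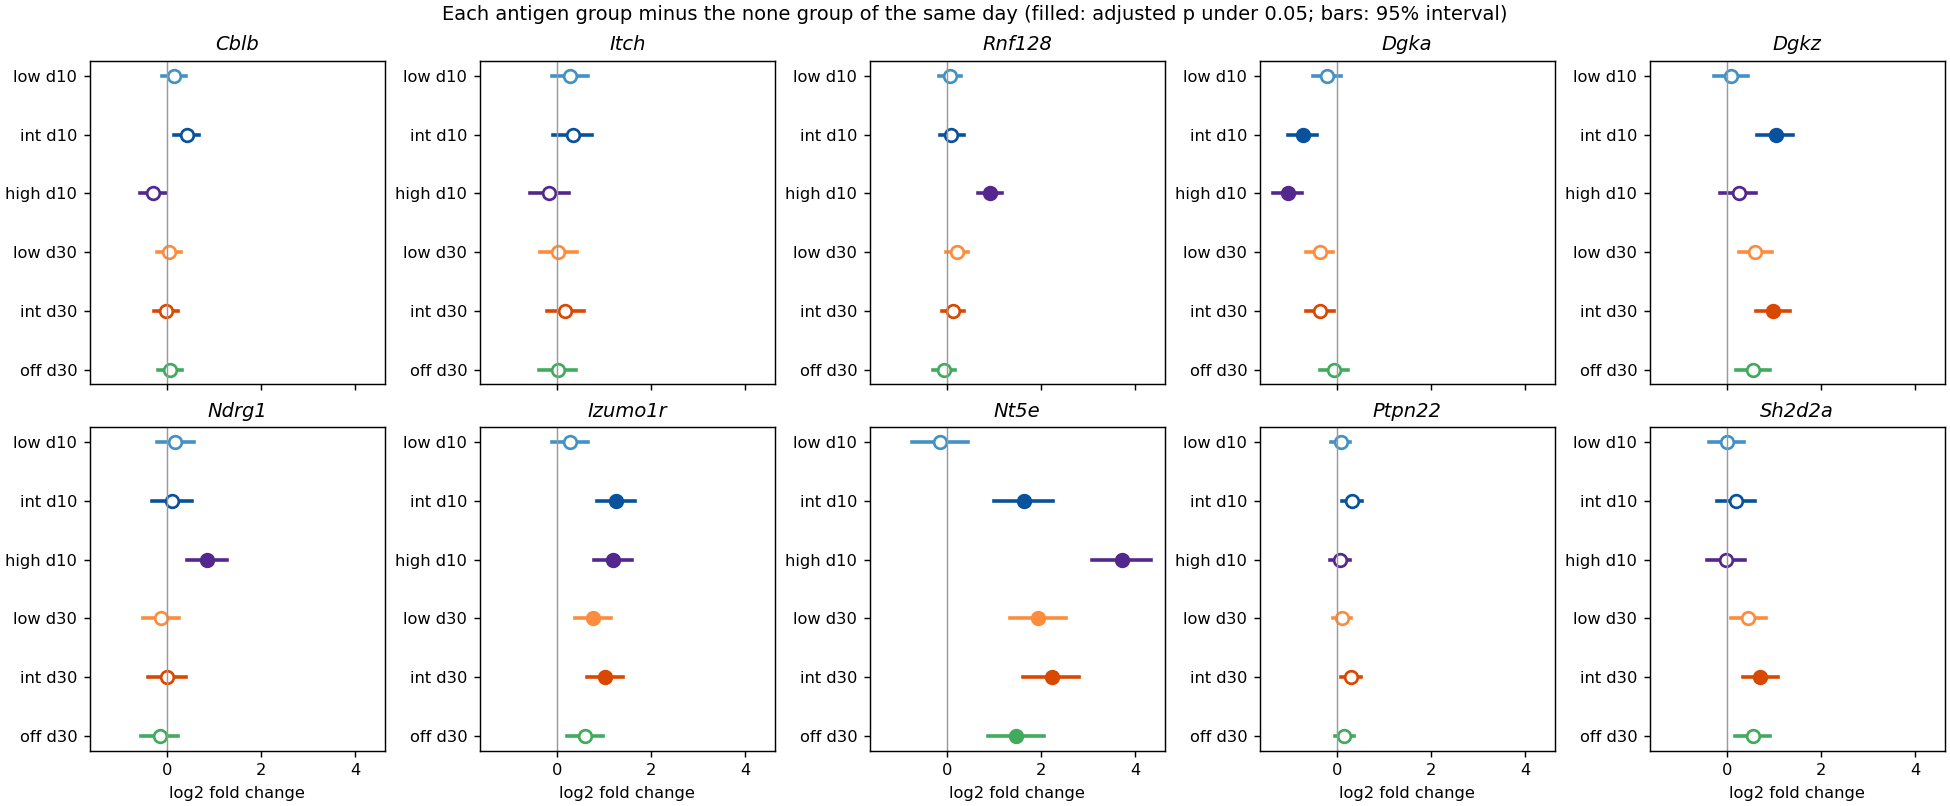
Log2 fold change of each antigen group minus none cells of its day, 1 panel per gene, all panels on the same horizontal axis. Filled points had an adjusted p under 0.05, open points did not, and bars are 95% intervals; for Nt5e the high group lies farthest right at 3.71, and low crosses 0 on day 10 but lies at 1.94 on day 30.

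Of the 9 measured genes of the adenosine pathway besides Nt5e, 1 rose in int cells of day 10, 2 rose and 1 fell in high cells, and 3 rose in int cells of day 30. Slc29a1, a nucleoside transporter, rose in all 3, by 1.23 ± 0.23, 1.4 ± 0.23 and 0.96 ± 0.22 (adjusted p = 0.000833, 2.87e-05 and 0.00655). Entpd1, which encodes CD39, the enzyme that supplies CD73 with AMP, rose in high cells by 0.93 ± 0.18 (adjusted p = 0.000464). Dpp4, which encodes the surface peptidase CD26, fell in high cells (-1.11 ± 0.17, adjusted p = 9.08e-06) and rose in int cells of day 30 (0.63 ± 0.16, adjusted p = 0.0224). Adk, adenosine kinase, rose in int cells of day 30 (1.02 ± 0.23, adjusted p = 0.00577). The list median was 0.13, -0.03 and 0.34.

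Izumo1r was lower in none cells than in naive cells, while its arrays overlapped the naive range in int and high cells. Low arrays of day 10, at 9.37 to 9.66, also lay below all naive arrays, a difference that was not tested. Low arrays of day 30 and off arrays overlapped the naive range. Naive arrays read 9.86, 10, 10.02, 10.21 and 10.5, and none arrays of day 10 read 8.7, 9.02, 9.29, 9.5 and 9.82, all below them. The difference was -0.85 ± 0.19 (adjusted p = 0.00392), and -0.76 without naive arrays 3 and 4, where the call was lost (adjusted p = 0.0706). For none cells of day 30 it was -0.96 ± 0.19 (adjusted p = 0.000987) and held without those arrays (-0.87, adjusted p = 0.0187). Int arrays of day 10 read 10.38, 10.49, 10.56 and 10.62, above every none and low array. High arrays read 9.82, 10.55, 10.68 and 10.79, of which 3 exceeded all none arrays. Against none cells, Izumo1r rose by 1.25 ± 0.2 in int (adjusted p = 8.49e-05) and by 1.19 ± 0.2 in high cells (adjusted p = 4.77e-05). Int and high differed by -0.05 (95% interval -0.48 to 0.37), in contrast to their 2.08 difference in Nt5e.

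On day 30, none arrays of Izumo1r read 8.76, 9.16, 9.22, 9.24 and 9.4, low arrays 9.41, 9.95, 9.96, 10.03 and 10.26, and int arrays 9.89, 10.15, 10.26, 10.29 and 10.3. Both antigen groups lay above the none group, though the lowest low array did so by little. Int exceeded none by 1.02 ± 0.19 (adjusted p = 0.00051), a call that held throughout. Low exceeded none by 0.77 ± 0.19 (adjusted p = 0.0404), but the call was lost on leaving out any of 8 of the 10 arrays, all but low array 3 and none array 5, at an adjusted p of 0.0568 to 0.127. It was also lost without the variance trend (adjusted p = 0.0546) and with array weights (adjusted p = 0.104). Off arrays 1 to 5, at 10.27, 10.35, 9.24, 9.66 and 9.24, covered both the none and int ranges. Arrays 1 and 2 were the higher ones, as for Nt5e and for Dgkz (8.55, 8.37, 7.9, 8.03 and 7.97), and had the lower myeloid means given above and the higher means of 6 regulatory T cell markers (5.61, 5.55, 5.23, 5.06 and 4.83). Neither off minus none (0.6, 95% interval 0.21 to 0.98, adjusted p = 0.177) nor off minus int (-0.43, -0.81 to -0.04, adjusted p = 0.571) was called, and the part of either marker list in these values was not tested.

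Regulatory T cells carry folate receptor 4, and some but not all of their markers read here moved with Izumo1r. Of 6 markers, 3 rose in int cells of day 10 (Ikzf2, Il2ra and Ctla4), 4 in high cells, 1 in low and 3 in int cells of day 30, and 5 fell from naive to none cells of day 10; of all genes, 1.24%, 5.25%, 0.654%, 2.21% and 3.3% were called there. The mean of the 6 lay at 6.17 to 6.5 in naive, 4.66 to 5.18 in none, 5.84 to 6.11 in int and 5.22 to 6.1 in high cells of day 10, and at 4.8 to 5.08 in none, 5.28 to 5.98 in low, 5.82 to 6.28 in int and 4.83 to 5.61 in off cells of day 30. Foxp3, the factor that defines these cells, differed between int and none cells of day 10 by -0.21 (95% interval -0.76 to 0.34) and was not called. Its means were 3.81 in none, 3.6 in int and 3.41 in high cells of day 10. These means lie near the array medians of 3.28 to 3.44, so that Foxp3 was dim. The part of such cells in the values of Izumo1r was not tested.

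Ptpn22 was called in 4 of 19 comparisons, those with naive cells. It was lowest in naive cells (9.24 to 9.63) and highest in int cells of day 10 (10.08 to 10.45), which did not overlap. Int cells exceeded naive cells by 0.8 ± 0.11 (adjusted p = 1.04e-06; 0.81 without naive arrays 3 and 4), a call that held under every alternative. On day 10, none cells exceeded naive cells by 0.48 ± 0.1 (adjusted p = 0.00191) and high cells did by 0.54 ± 0.11 (adjusted p = 0.000534), and these were 0.49 and 0.55 without naive arrays 3 and 4, but fitted alone the groups gave an adjusted p of 0.0754 and 0.0581. None cells of day 30 exceeded naive cells by 0.38 ± 0.1 (adjusted p = 0.0176); the call was lost without none array 3, naive array 1 or naive array 3 (adjusted p = 0.0653, 0.0625 and 0.0621) and without naive arrays 3 and 4 (adjusted p = 0.0541), and fitted alone the groups gave an adjusted p of 0.145. Against none cells, int antigen gave 0.32 on day 10 (95% interval 0.1 to 0.53, adjusted p = 0.186), with every int array above every none array, and 0.3 on day 30 (0.09 to 0.5, adjusted p = 0.129).

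Among 15 measured phosphatases and partners of Csk, 1 rose in int cells of day 10, 3 rose and 2 fell in high cells, and 3 rose and 2 fell in int cells of day 30. Ptpn11, which encodes SHP-2, rose in each, by 1.74 ± 0.32, 2.56 ± 0.32 and 1.89 ± 0.3 (adjusted p = 0.000754, 1.44e-07 and 4.8e-05). Ptprj, which encodes CD148, rose in high cells (1.85 ± 0.21, adjusted p = 1.16e-08), where Pag1, the membrane anchor of Csk, fell (-1.13 ± 0.23, adjusted p = 0.000762). In int cells of day 30 the kinase gene Fyn rose (0.86 ± 0.17, adjusted p = 0.00149) and Ptpn4 fell (-1.19 ± 0.25, adjusted p = 0.00229), and Ptpn4 was higher in off than in int cells (1.02 ± 0.25, adjusted p = 0.0352). List medians were 0.06, 0.32 and 0.28.

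Sh2d2a, which encodes TSAd, was lowest in none cells of day 30, with arrays of 7.05, 7.06, 7.36, 7.43 and 7.74. The int arrays of that day, 7.75, 7.87, 7.99, 8.22 and 8.33, began just above them. The difference was 0.7 ± 0.19 (adjusted p = 0.0288), and it lost the call without int array 2 or 5 (adjusted p = 0.0826 and 0.0972), without none array 1, 4 or 5 (adjusted p = 0.0887, 0.0897 and 0.0509) and with these groups fitted alone (adjusted p = 0.0716). None cells fell from day 10 (7.93 to 8.28) to day 30 by -0.7 ± 0.19 (adjusted p = 0.0272), a call lost on leaving out none array 1, 2, 3 or 5 of day 10 or none array 1 or 4 of day 30, at an adjusted p of 0.0505 to 0.0778, and with these groups fitted alone (adjusted p = 0.0521). Int cells of day 10 (7.93 to 8.58) exceeded naive cells (7.27 to 7.83) by 0.7 ± 0.2 (adjusted p = 0.0376); it was lost without int array 2, 3 or 4, or naive array 1, 3 or 5, at an adjusted p of 0.0546 to 0.202, without naive arrays 3 and 4 (adjusted p = 0.0958), after quantile normalization (adjusted p = 0.102) and with these groups fitted alone (adjusted p = 0.0736). On day 10, int against none was 0.19 (95% interval -0.21 to 0.59) and not called.

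Of 13 measured SH2 adaptors and TSAd partners, 1 fell in int cells of day 10, 1 rose and 4 fell in high cells, and 1 rose in int cells of day 30. Txk, a kinase of the Tec family, fell on day 10 in int (-1.33 ± 0.31, adjusted p = 0.0126) and in high cells (-1.39 ± 0.31, adjusted p = 0.00253). Grap2, which encodes the adaptor Gads, fell in high cells by -2.81 ± 0.21 (adjusted p = 2.73e-13), and Sh3bp2 rose there by 1.26 ± 0.31 (adjusted p = 0.00724). Sh2d1a, which encodes SAP, rose in int cells of day 30 (0.81 ± 0.18, adjusted p = 0.00605). List medians were 0.05, -0.26 and 0.

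Ndrg1 was highest in naive cells. It was dim in the primed groups other than high, with means of 3.07 to 3.46, around the array medians of 3.28 to 3.44. Naive arrays 1 to 5 read 5.13, 5.19, 4.04, 5.14 and 4.07, and none arrays of day 10 averaged 3.07 ± 0.15 (SD, n = 5). The naive arrays formed a wide group, and even its lowest array lay above all none arrays and the int arrays of day 10. The none group of day 10 was lower by -1.64 ± 0.2 (adjusted p = 6.58e-08), that of day 30 by -1.25 ± 0.2 (adjusted p = 2.69e-05) and int cells of day 10 by -1.55 ± 0.21 (adjusted p = 1.07e-06). Without naive arrays 3 and 4 these were -1.73, -1.33 and -1.63, all still called. On a second probe set the first of them was -0.88, also called.

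High arrays of Ndrg1 read 3.58, 3.94, 4 and 4.15, above all none arrays of day 10, and the difference was 0.85 ± 0.21 (adjusted p = 0.00697). The second probe set gave 0.18 and no call (adjusted p = 0.705), and the mean of both gave 0.51 (adjusted p = 0.0687), so this difference rests on the brighter probe set. High against int, 0.75 ± 0.22 (adjusted p = 0.0463), was lost in 6 of 10 settings, among them with the replicate number as a block (adjusted p = 0.0611) and with either other choice of probe set (adjusted p = 0.128 and 0.579). Leaving out single arrays ended it in a further 6 of 8 runs, those without int array 1, 3 or 4 or high array 3, 4 or 5 (adjusted p = 0.0689 to 0.179). High against naive, -0.8 ± 0.21 (adjusted p = 0.0126), was lost without high array 2 or naive array 1, 2 or 4 (adjusted p = 0.054 to 0.0722), with these groups fitted alone (adjusted p = 0.196) and without the 4 arrays that stood apart (adjusted p = 0.0529); without naive arrays 3 and 4 it was -0.88 and held. With int or low antigen no difference from none passed. For int, the 95% interval was -0.32 to 0.52 on day 10 and -0.4 to 0.39 on day 30, and at so low a signal a change may not be seen. Among 7 measured relatives of Ndrg1 and of the folate receptor, limma called 0 in int or high against none on day 10 or int against none on day 30, with 0, 1 and 0 at an unadjusted p under 0.05.

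A further list of 19 measured genes tied to anergy or to chronic stimulation, none of them among the 10, was read beside the set. It was chosen, like the set, with earlier results of these data known, so that its counts and medians only describe these genes. On day 10, 9 rose in int and 13 in high cells, and on day 30, 11 rose in int and 2 in low cells, with 0 lower in each; of all genes, 1.24%, 5.25%, 2.21% and 0.654% were called in these comparisons. Limma called 0 in low cells of day 10 and 0 in off cells, with 6 and 9 at an unadjusted p under 0.05. List medians were 1.3, 1.27 and 1.02 in int, high and day 30 int cells, against 0.33, 0.15 and 0.23 for the 10 genes and -0.01, 0.01 and -0.01 for all genes. Lag3, an inhibitory receptor, rose by 4.12 ± 0.45, 4.66 ± 0.45 and 4.27 ± 0.42 in these comparisons (adjusted p = 6.43e-08, 2.98e-10 and 3.06e-09). Off cells were lower than int cells in 5 of the 19, Lag3 (-2.55 ± 0.42, adjusted p = 0.000419) and Nr4a1, an immediate early gene of receptor signalling (-1.75 ± 0.28, adjusted p = 0.000241), among them. The 10 members had 0 called there, as given above, with a difference of -0.76 ± 0.29 for Nt5e.

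**Figure D4:**
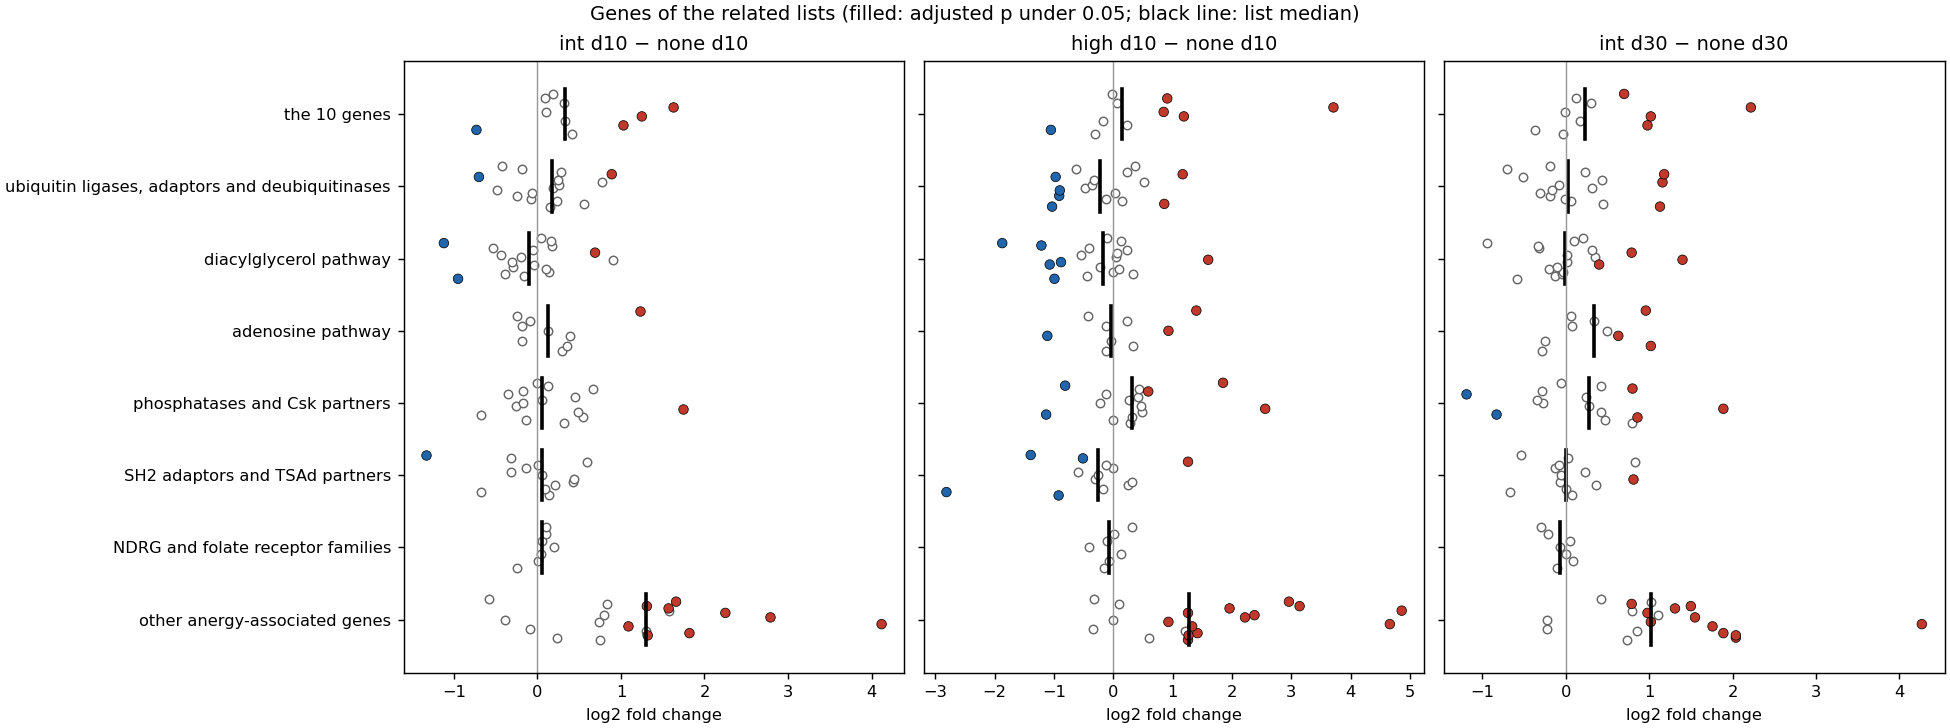
Log2 fold change of the 10 genes and of the 7 related gene lists in int against none on day 10, high against none on day 10, and int against none on day 30. Points are genes, filled where the adjusted p was under 0.05 (red higher, blue lower), and the black line is the median of each row; the row of other anergy-associated genes lies to the right of 0 in all 3 panels, with medians of 1.3, 1.27 and 1.02.

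For members whose group means spanned at least 1 log2 unit, the genes with the most similar pattern over the 43 arrays were sought by Pearson's r, as a description. Arrays share groups, sort series and hybridization, so these values are not independent evidence. Nt5e lay closest to Eea1 (r = 0.92), Hif1a (r = 0.91) and Gpm6b (r = 0.9). Izumo1r lay closest to Ikzf2 (r = 0.85), Egr1 (r = 0.85) and Tox (r = 0.84), and Dgkz to Cxcr4 (r = 0.82), Pou2af1 (r = 0.8) and Kdm6b (r = 0.78). Dgka was nearest to Macf1 (r = 0.88), Mef2d and Arhgap45 (r = 0.85 each), and Cblb to Hivep2, Polr2a (r = 0.82 each) and Il2rb (r = 0.8). For Ndrg1 the closest were Ankrd55, Cnn3 and Arhgap20 (r = 0.77, 0.76 and 0.74), but the rank correlations were 0.51, 0.48 and 0.19.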

How the data were processed

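RNA of 43 sorted samples was amplified, biotin-labelled and hybridized to single-colour arrays, per the labels. The authors' deposited values were used as deposited, as log2 signal per probe set, a base inferred from their range. How signals were background-corrected, summarized and normalized is not given in the sources used here. The array has 41345 probe sets, of which 1814 had several symbols and 16010 none; the 23521 with 1 symbol were used, and the probe set with the highest mean was kept for 1082 symbols with more than 1, which left 22180 genes.

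A mean for each of 9 groups was fitted over all arrays with limma 3.58.1 in R 4.3.3 (lmFit, eBayes with a variance trend), and 17 differences and 2 interactions were tested. Benjamini-Hochberg adjustment ran over all genes and calls were made at 0.05. The number of arrays limits the precision. Groups came from sample titles.

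The 10 members and the related lists (97 of 109 genes measured) were chosen with earlier results of these data known. All members were named whatever their values, with up to 3 called genes of each list of largest change per comparison, the 3 most similar genes of members spanning at least 1 log2 unit, and sample markers; list genes without a usable probe set were not analysed here. Alternatives were quantile normalization, median centring, a mean of at least 4, other probe sets, no variance trend, array weights, fitting only the groups compared, a replicate block, and leaving out arrays. Replicate numbers were not used as pairs in the main fit. Deviations of same-numbered arrays correlated at -0.02 on day 10 and 0 on day 30 on average. This does not show whether a number marks a shared mouse or sort.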

Additional observations from a re-analysis of the deposited data

Results flagged for a closer look

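In each group of 4 or 5 arrays, the array farthest from the rest was compared with the spread of its group by Dixon's gap test at the 95% level. Of 90 groups 6 had such an array, and chance gives about 1 in 20. Itch read 6.41 on high array 2 of day 10, against 7.41 to 7.54 on the other high arrays. Rnf128 read 2.96 on none array 5 of day 30, against 2.63 to 2.68. Dgka read 10.17 on low array 4 of day 10, against 10.47 to 10.51. Nt5e read 7.89 on int array 4 of day 10, against 7.01 to 7.16. Ptpn22 read 9.52 on none array 4 of day 10, against 9.93 to 10.03, and Sh2d2a read 8.28 on none array 5 of day 10, against 7.93 to 7.99. The effect of low antigen on Nt5e differed between the days by 2.09 ± 0.42 in a test of the interaction (limma, adjusted p = 0.0316), and that call was lost on leaving out 12 of 20 arrays.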

How the results depend on the processing

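Counts below are of the 10 genes called. No called value changed its sign under any alternative; signs of values not called were not compared. A mean of at least 4, which removes Rnf128 and Ndrg1, left 3 in place of 5 in high against naive, against none and against int on day 10. Fitting only the groups compared gave 2 in high against naive, 3 in high against int, 0 in off against none, and 1 in none between days. On day 30, low against none had 1 without the variance trend and 1 with array weights, and off against none had 0 with array weights. Without naive arrays 3 and 4, none array 4 and high array 2 of day 10, none cells between days had 4. Int cells between days had 2 with the mean of probe sets and 2 with the second probe set. The low interaction had 0 after centring. Beside those given in the report, differences not called became called for Cblb without high array 5 in high against none (-0.46, adjusted p = 0.0285), for Sh2d2a without high array 2 in high against naive (0.73, adjusted p = 0.016) and with array weights in none against naive on day 10 (0.54, adjusted p = 0.0485), for Rnf128 with array weights in low cells between days (0.36, adjusted p = 0.0416), and, without the 4 arrays named, for Cblb (-0.42, adjusted p = 0.0375) and Dgkz (-0.6, adjusted p = 0.0395) in none cells between days.

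With each array left out in turn, counts ran from 6 to 6 and 5 to 6 for none against naive on days 10 and 30, 4 to 6 for int and 4 to 5 for high against naive, 4 to 4, 5 to 6 and 3 to 5 for int against none, high against none and high against int on day 10, 3 to 3 for int against low, 1 to 2, 3 to 4 and 0 to 1 for low, int and off against none on day 30, 1 to 2, 2 to 3 and 1 to 1 for none, low and int between days, and 0 to 1 for the low interaction. Counts of 0 stayed at 0. The replicate block moved 1 of 190 calls (Ndrg1, high against int, adjusted p = 0.0611). Over all genes, counts that moved by over 1.5 times were 733 (337 to 1071) for none day 10 against naive, 961 (438 to 974) for none day 30 against naive, 698 (411 to 958) for int day 10 against naive, 1068 (623 to 1112) for high against naive, 1 (0 to 13) for low against none on day 10, 276 (170 to 581) for int against none on day 10, 120 (78 to 354) for int against low on day 10, 664 (345 to 922) for high against int, 145 (71 to 232) for low against none on day 30, 491 (292 to 573) for int against none on day 30, 59 (18 to 80) for off against none, 121 (45 to 131) for int against low on day 30, 103 (35 to 128) for off against int, 761 (353 to 1061) for none between days, 636 (281 to 1341) for low between days, 158 (71 to 335) for int between days, 20 (10 to 29) for the int interaction and 7 (5 to 16) for the low interaction.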

Other observations

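Cd22, a lectin best known from B cells that was read here as a B cell marker, was higher in low than in none cells of day 30 by 2.35 ± 0.34 (limma, adjusted p = 4.93e-05) and in off cells by 1.67 ± 0.34 (adjusted p = 0.0137), with group means of 6.99, 6.32 and 4.65 in low, off and none cells and no overlap with the none arrays. None of the other 5 measured B cell markers was called in these comparisons. In high cells of day 10, Thy1, which encodes the CD90 molecule used in the sort, was lower than in none cells by -1.07 ± 0.12 (adjusted p = 4.19e-09), and Klrb1c, which encodes NK1.1, was higher by 1.6 ± 0.29 (adjusted p = 0.000141).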
